A study of Homo sapiens with 24 samples.

Results

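HEK293T cells, an established human embryonic kidney line, were treated for 2 h with 5 µM TMG or with the solvent DMSO, and their polyadenylated RNA was sequenced. TMG (Thiamet-G) blocks O-GlcNAcase, the enzyme that the tables call MGEA5. The comparison described here is that of the 3 TMG libraries with the 3 DMSO libraries of the same experiment and time, 6 of the 23 libraries in the count tables. Cells in both groups had grown to about 80% confluence and had received fresh medium 3 h before treatment. RNA had been taken with Trizol or a column kit, and the labels do not say which sample had which. All 164219 bins of the table were taken as members, with no choice by value: 4769 bins that the authors class as detained introns, 159450 other bins, and the sums of those other bins over 13236 gene groups. The other libraries hold TMG at 6 h, the OGT inhibitor OSMI-2 at both times, and DMSO beside each. Nothing in the labels says that the libraries of a group came from separate cultures, so p-values measure only the spread between these libraries.

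O-GlcNAc is a single sugar that the transferase OGT attaches to serine and threonine residues of nuclear and cytosolic proteins and that O-GlcNAcase removes, so TMG raises it. The sugar is drawn from the same UDP-GlcNAc pool that feeds glycosylation in the endoplasmic reticulum and Golgi. A detained intron is an intron left in an otherwise spliced, polyadenylated transcript that stays in the nucleus. OGT and MGEA5 both carry such introns, and their splicing is known to follow the O-GlcNAc level. The endoplasmic reticulum folds proteins of the secretory route with chaperones such as HSPA5, and its stress sensors raise the genes of those chaperones through the transcription factors ATF6 and XBP1.

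The 6 libraries held 46729785 to 56408059 bin counts, and the depth of both groups overlapped. There were 1.47 bin counts per index read in DMSO and 1.43 in TMG, so a read can count in more than 1 bin, and bins are not independent. All 10 HEK293 and embryonic kidney markers searched were in the table, VIM the highest at 624 to 721 CPM (counts scaled to library size). Of markers of other cell types, HBA1 had at most 4 counts per library and COL1A1 and ACTA1 had 32 to 499, neither past the test. DMSO library a stood apart from the other libraries: its chi-square per degree of freedom over genes was 18.9 and 18.0 against the other DMSO libraries, and 4.33 to 8.82 for the other pairs within groups. A level here is RNA per counted RNA, so fewer cells with a transcript and less of it per cell cannot be told apart.

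More genes fell than rose at 2 h, and the changes were small. Of 12361 genes tested, 978 changed (7.91%) at an adjusted p under 0.05 (edgeR quasi-likelihood test, Benjamini-Hochberg). Of these 824 fell and 154 rose, 6.67% and 1.25% of those tested. The median change was -0.25 on the log2 scale among the genes that fell, 0.24 among those that rose and -0.031 over all genes tested. At least 0.5 in size was reached by 27 of the genes that fell and 10 of those that rose. Every TMG library lay beyond every DMSO library in 791 of the genes that fell and 149 of those that rose, against 18.8% (lower) and 8.13% (higher) of all genes tested. The genes were called on these same libraries, so this separation largely restates the calls. The count rests on the libraries and on the pool of spread: it was 676 lower and 93 higher without DMSO library a, 225 and 18 without TMG library b, 229 and 58 without TMG library c, 580 and 68 without DMSO library b, 475 and 33 in a fit of the 12 libraries of the TMG experiment, and 0 in a fit of all 23 libraries, where 162 genes had an unadjusted p under 0.05. Scaling on genes alone gave 521 lower and 247 higher.

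The 8 genes of O-GlcNAc cycling and the hexosamine route did not pass the test at 2 h. OGT (chrX:70752913-70795750, hg19) was at 166, 151 and 147 CPM in DMSO libraries a to c and 146, 159 and 146 CPM in TMG libraries a to c, and its groups overlapped (log2 fold change -0.04, SE 0.05, adjusted p = 0.708). MGEA5 (chr10:103544198-103578222) was at 132, 135 and 144 CPM in DMSO libraries a to c and 147, 153 and 153 CPM in TMG libraries a to c. Every TMG library was higher for MGEA5, but the change missed the threshold (log2 fold change 0.14, SE 0.05, adjusted p = 0.0848). It passed with scaling on genes alone (adjusted p = 0.0429) and with the trend on GC content and transcript length removed in each library (adjusted p = 0.0408). GNPNAT1, which acetylates glucosamine 6-phosphate, had a log2 fold change of 0.15 (adjusted p = 0.09). The other members, GFPT1, GFPT2, PGM3, UAP1 and NAGK, lay between -0.11 and 0.028.

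The chaperones and folding enzymes of the endoplasmic reticulum fell together. Of 17 genes of the unfolded protein response list, 12 fell and none rose, where 6.67% of all genes fell. All 17 had a fold change below 0, with a median of -0.20 on the log2 scale against -0.031 over all genes. Their summed level was 13150.0 ± 524 CPM in DMSO (SD, n = 3) and 11043 ± 172 CPM in TMG (SD, n = 3). The 12 were PDIA4, PDIA6, SDF2L1, CALR, CRELD2, HYOU1, HSPA5, HSP90B1, DNAJB11, CANX, SEL1L and MANF. Between 8 (without DMSO library b, TMG library b or TMG library c) and 13 (without DMSO library c) of the list fell when a library was left out. It was 12 in the fit of the 12 libraries of the experiment and 11 with the trend on GC content and transcript length removed in each library.

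HSPA5 (BiP), the Hsp70 chaperone of the endoplasmic reticulum, was at 986, 996 and 915 CPM in DMSO libraries a to c and 779, 841 and 821 CPM in TMG libraries a to c (log2 fold change -0.25, SE 0.05, adjusted p = 0.00417). HSP90B1, its Hsp90 counterpart, was at 2836, 2832 and 2698 CPM in DMSO libraries a to c and 2255, 2443 and 2438 CPM in TMG libraries a to c (log2 fold change -0.23, SE 0.05, adjusted p = 0.00514). In both genes the 3 TMG libraries lay below the 3 DMSO libraries, with a fitted level lower by 15.7% and 14.7%. CALR, a lectin chaperone that binds new glycoproteins, was at 3278, 3164 and 2923 CPM in DMSO libraries a to c and 2556, 2513 and 2511 CPM in TMG libraries a to c (log2 fold change -0.30, SE 0.05, adjusted p = 0.000715). CANX, its membrane-bound relative, was at 2552, 2558 and 2430.5 CPM in DMSO libraries a to c and 2105, 2243 and 2211 CPM in TMG libraries a to c (log2 fold change -0.20, SE 0.05, adjusted p = 0.0107). PDIA4, a disulfide isomerase, was at 712, 723 and 668 CPM in DMSO libraries a to c and 569, 544 and 574 CPM in TMG libraries a to c (log2 fold change -0.32, SE 0.05, adjusted p = 0.000647). No TMG library of these genes reached the lowest DMSO library, which was DMSO library c in each. The remaining fallers were the disulfide isomerase PDIA6 (-0.29), the chaperone complex members SDF2L1 (-0.31) and DNAJB11 (-0.20), the nucleotide exchange factor HYOU1 (-0.27), the secreted stress proteins CRELD2 (-0.28) and MANF (-0.17), and SEL1L (-0.20), a part of the degradation complex. The factor XBP1 had -0.16 (adjusted p = 0.0709). HERPUD1, DNAJC3, EDEM1 and DNAJB9, also targets of the stress response, lay between -0.084 and -0.016.

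The promoters of these chaperones are known for the ER stress element, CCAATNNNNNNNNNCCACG, to which ATF6 and the factor NF-Y bind. The upstream sequences below are shown because 6 of the 12 genes that fell hold an exact match. They are RefSeq sequences of GRCh38.p14, 200 bases before the start of each gene, 5′ to 3′ on the gene's strand, with the fixed bases of the element in capitals on either strand (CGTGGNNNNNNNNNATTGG on the other).
HSPA5: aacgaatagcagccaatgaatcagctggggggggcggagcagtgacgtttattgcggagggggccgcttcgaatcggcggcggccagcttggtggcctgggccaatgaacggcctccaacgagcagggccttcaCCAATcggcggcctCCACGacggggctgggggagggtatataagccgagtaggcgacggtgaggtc
HSP90B1: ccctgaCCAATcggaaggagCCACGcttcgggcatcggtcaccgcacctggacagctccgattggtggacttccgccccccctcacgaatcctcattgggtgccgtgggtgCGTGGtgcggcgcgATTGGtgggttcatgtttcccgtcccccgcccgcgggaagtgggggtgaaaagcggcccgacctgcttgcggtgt
PDIA6: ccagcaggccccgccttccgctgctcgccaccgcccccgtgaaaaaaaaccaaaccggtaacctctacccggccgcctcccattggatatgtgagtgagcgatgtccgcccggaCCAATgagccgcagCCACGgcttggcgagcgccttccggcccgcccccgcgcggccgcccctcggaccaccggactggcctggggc
CRELD2: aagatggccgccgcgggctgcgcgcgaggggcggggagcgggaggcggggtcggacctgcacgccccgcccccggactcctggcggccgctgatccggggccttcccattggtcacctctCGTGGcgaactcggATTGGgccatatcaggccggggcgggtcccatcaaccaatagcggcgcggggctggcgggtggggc
The stretches are chr9:125241344-125241543 (minus strand), chr12:103930210-103930409 (plus), chr2:10812786-10812985 (minus) and chr22:49918434-49918633 (plus). HSP90B1 holds 2 matches and the others 1. A match was present in 7 of the 17 promoters of the list (CALR, CANX, CRELD2, HSP90B1, HSPA5, PDIA6 and XBP1), searching 250 bases before to 50 after the start, and in 27 of 35116 RefSeq promoters (0.0769%). Among 9069 tested genes with a promoter in the table, of which 589 fell and 117 rose, 13 held it. Of the 13, 7 fell (the 6, already counted with their list, and ALG12) and 1 rose, ZNF17 (0.51). XBP1 (-0.16), EIF2A (0.11), SERP1 (-0.040), FICD (0.69) and TRIM5 (-0.39) were not called. ALG12, an ALG mannosyltransferase of the endoplasmic reticulum, is the divergent neighbour of CRELD2 and shares the printed element. ALG12 was at 50.7, 49.4 and 50.8 CPM in DMSO libraries a to c and 46.5, 40.6 and 39.1 CPM in TMG libraries a to c (log2 fold change -0.26, SE 0.06, adjusted p = 0.0109). A match is a description of the letters and not a bound site.

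**Figure D1:**
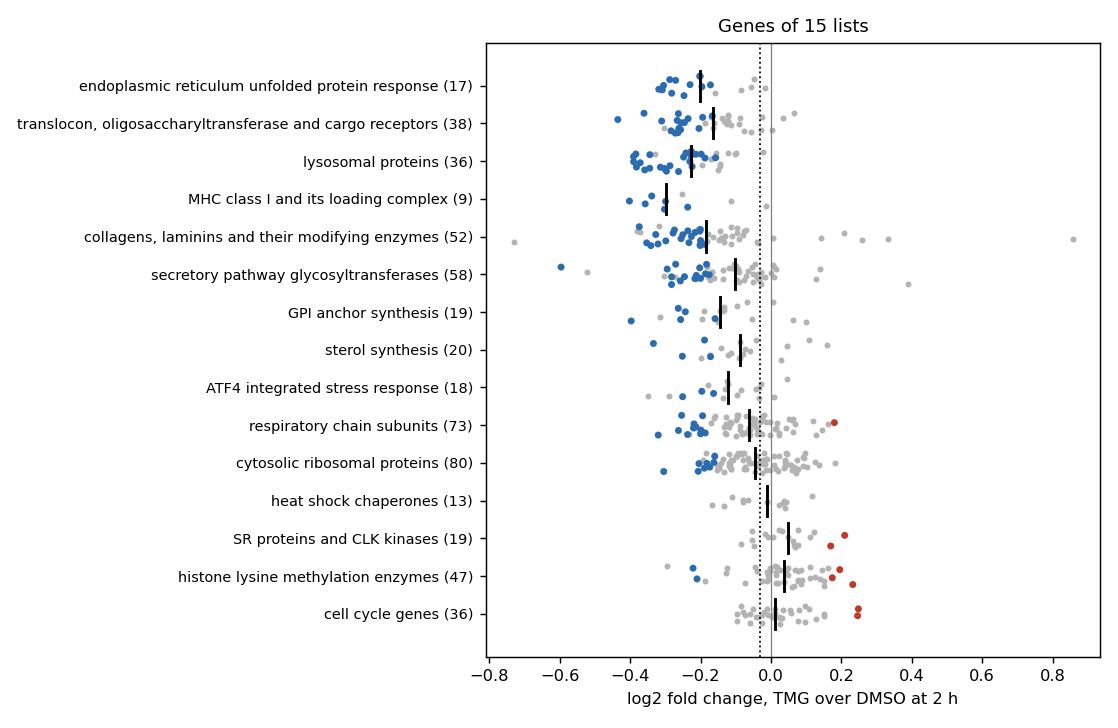
Log2 fold change of TMG over DMSO at 2 h (horizontal axis) for the genes of 15 lists, with the number tested in brackets. Blue points fell and red points rose at an adjusted p under 0.05, grey points did not pass, black bars are list medians and the dotted line is the median of all 12361 genes (-0.031). The lists of the endoplasmic reticulum, lysosome and MHC class I lie to the left, with medians of -0.20, -0.23 and -0.30.

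The fall reached other stations of the secretory route. The lists in this paragraph and the next were put together after the values had been seen, so their counts are a description only. Of all genes tested, 6.67% fell and 1.25% rose. Of 38 genes of the translocon, the oligosaccharyltransferase and cargo receptors, 16 fell and none rose (median -0.17). SEC61A1, a subunit of the channel through which new chains enter, was at 846, 852 and 774 CPM in DMSO libraries a to c and 702, 699.7 and 683 CPM in TMG libraries a to c (log2 fold change -0.25, SE 0.05, adjusted p = 0.00416). DDOST, a subunit of the enzyme that transfers N-glycans, was at 846, 807 and 729 CPM in DMSO libraries a to c and 697, 659 and 638 CPM in TMG libraries a to c (log2 fold change -0.26, SE 0.06, adjusted p = 0.00514). The TMG libraries were below the DMSO libraries for both. The other fallers were the subunits RPN1, RPN2 and STT3A, the translocon partners SSR2 and SSR4, the retrieval receptor KDELR1, the cargo receptors SURF4, LMAN2, TMED1, TMED3, TMED9 and TMED10, and the Golgi proteins YIPF2 and YIPF3. YIPF2 had the largest fall of the group (-0.43). Of 36 lysosomal genes, 23 fell and none rose (median -0.23). The list does not hold every gene of that kind: the cathepsin CTSK, outside it, rose (0.51). CTSD, a lysosomal protease, was at 250.2, 259 and 230.0 CPM in DMSO libraries a to c and 197, 184 and 183 CPM in TMG libraries a to c (log2 fold change -0.39, SE 0.05, adjusted p = 0.000379). PSAP, the precursor of the saposins, was at 795, 720.0 and 657 CPM in DMSO libraries a to c and 595, 562 and 554 CPM in TMG libraries a to c (log2 fold change -0.34, SE 0.06, adjusted p = 0.000825). GRN, the progranulin gene, was at 329, 321 and 279 CPM in DMSO libraries a to c and 259, 235 and 225 CPM in TMG libraries a to c (log2 fold change -0.37, SE 0.06, adjusted p = 0.000667). In these 3 genes the highest TMG library was TMG library a and lay below every DMSO library. The summed lysosomal level was 4145 ± 246 CPM in DMSO (SD, n = 3) and 3468 ± 87.4 CPM in TMG (SD, n = 3). Of 23 V-ATPase subunits, 4 fell and none rose (median -0.094). When a library was left out, 11 to 17 translocon and cargo genes and 12 to 27 lysosomal genes fell. The lowest counts came without TMG library b and without TMG library c, in that order.

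Cell-surface and secreted proteins showed the same direction, where 6.67% of all genes tested fell. Of 9 genes of MHC class I and its loading complex, 6 fell and none rose (median -0.30), among them HLA-C (-0.36), HLA-F (-0.34) and TAP1 (-0.30), a subunit of the peptide transporter. The HLA genes are near-identical copies, and how the authors' counting split shared reads is not given in the sources used here. TAP1 was at 28.1, 26.3 and 26.3 CPM in DMSO libraries a to c and 22.1, 22 and 21.4 CPM in TMG libraries a to c (log2 fold change -0.30, SE 0.06, adjusted p = 0.00513). B2M, the light chain shared by these molecules, had -0.013 (adjusted p = 0.919). Of 52 collagens, laminins and their modifying enzymes tested, 20 fell and none rose (median -0.18). SERPINH1, the collagen chaperone, was at 153, 154 and 131 CPM in DMSO libraries a to c and 116, 116 and 107 CPM in TMG libraries a to c (log2 fold change -0.37, SE 0.06, adjusted p = 0.000647). COL2A1 (-0.34), LAMB2 (-0.33), FBLN1 (-0.35), P4HB (-0.30) and PLOD3 (-0.32) were among the fallers. This count was 7 without TMG library b and 11 without TMG library c. Of 19 genes of GPI anchor synthesis 5 fell, led by GPAA1 (-0.40), a subunit of the transamidase that attaches the anchor (2 fell without TMG library b and 3 without TMG library c). Of 231 solute carriers 40 fell and 1 rose (SLC26A10), with a median of -0.12, and 15 fell without TMG library b and 13 without TMG library c. Of 164 TMEM genes 35 fell and none rose (median -0.13), and this became 6 without TMG library b, 9 without TMG library c and 19 without DMSO library b. Cadherins and protocadherins, also membrane proteins, had 1 of 17 lower (CDH2, -0.17), a share near that of all genes, and a median of -0.012.

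**Figure D2:**
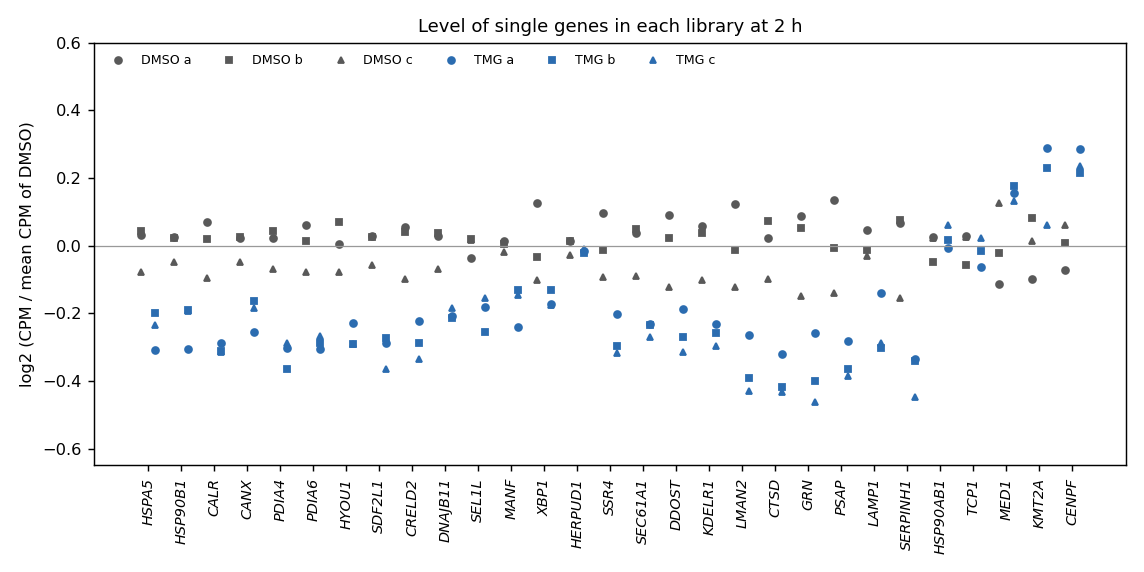
Level of single genes in each of the 6 libraries at 2 h, as log2 of CPM over the mean CPM of the DMSO libraries (vertical axis). Grey symbols are DMSO libraries and blue symbols TMG libraries, with circles, squares and triangles for libraries a, b and c. From HSPA5 to MANF every TMG library lies below every DMSO library, whereas the symbols of HERPUD1, HSP90AB1 and TCP1 mix.

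Lists of metabolism and translation and the glycosyltransferases were read against the 6.67% of all genes that fell. Of 58 glycosyltransferases of the secretory route, 14 fell and none rose (median -0.10). Among them were the N-glycan precursor enzymes ALG1, ALG3, ALG8, ALG9, ALG12 and ALG1L, the Golgi enzymes MGAT1, MGAT4B, GALNT2, ST3GAL2 and FUT11, and the proteoglycan enzymes EXT2, EXTL3 and B4GALT7. Their number ranged from 1 to 15 when a library was left out, with 2 without TMG library b, 1 without TMG library c, 8 without DMSO library b and 9 without DMSO library a. Sterol synthesis had 4 of 20 lower, among them the enzymes HSD17B7 and DHCR7 (median -0.089). The ATF4 list had 3 of 18 lower, TRIB3 (-0.25), SLC3A2 (-0.20) and PHGDH (-0.16). ATF4 itself (0.0095), DDIT3 (-0.086) and ASNS (-0.12) did not pass. Respiratory chain subunits had 11 of 73 lower and 1 higher (NDUFB6), with a median of -0.063. Cytosolic ribosomal proteins had 8 of 80 lower (median -0.046), and mitochondrial ribosomal proteins 5 of 69 (median -0.051), MRPL41 the furthest (-0.40), shares near that of all genes. These counts rest on single libraries. Without TMG library b the falls numbered 2 in the respiratory chain, 1 in mitochondrial ribosomal proteins and none in sterol synthesis, the ATF4 list and cytosolic ribosomal proteins. Without TMG library c they numbered 2, 1, 1 (sterol), 0 (ATF4) and 1 (cytosolic ribosomal). Without DMSO library b there were 2 for sterol synthesis, none for ATF4 and 9 for mitochondrial ribosomal proteins, without DMSO library a 7 respiratory, 3 mitochondrial ribosomal and 4 cytosolic ribosomal genes, without DMSO library c 8 mitochondrial and 13 cytosolic ribosomal genes, and without TMG library a 1 cytosolic ribosomal gene. With the GC and length trend removed, 1 cytosolic and 1 mitochondrial ribosomal gene fell, 7 respiratory genes, 9 glycosyltransferases, 3 sterol genes and no ATF4 gene.

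In the next lists the share that fell was near or below the 6.67% of all genes, apart from P4HA1 in the small hypoxia list. A single member fell in several of them: LSM10 of 55 core splicing factors, SLC2A1, the glucose transporter GLUT1, of 21 genes of glucose sensing and glycolysis, P4HA1 of 9 hypoxia targets, PSMB3 of 35 proteasome subunits, QARS of 20 tRNA synthetases and NUP210 of 19 nuclear pore genes. Initiation factors had EIF5B higher and EIF4EBP1 lower of 52, and DEAD and DEAH helicases had DDX55 higher and DDX31 lower of 46. TUBA1A and TUBB2B fell among 28 tubulin and chaperonin genes, and MED18 and INTS2 among 39 Mediator and Integrator subunits, both lists put together after the values had been seen. No member passed the test in either direction among 22 hnRNP genes, 13 heat shock chaperones, 14 NRF2 targets, 20 serum early genes, 16 clock genes, 13 p53 targets and 6 NF-kB targets. Among 463 tested gene groups with antisense or clone names, 21 fell and 2 rose (4 and 0 without TMG library c, 5 and 0 without TMG library b, 11 and 1 without DMSO library b, 13 and 3 without DMSO library a). Without TMG library c no member of the other lists of this paragraph passed.

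Rises were spread thinly over the lists, where 1.25% of all genes rose. KMT2E (0.23), KMT2A (0.20) and SETD2 (0.17) rose among 47 enzymes of histone lysine methylation, where SMYD3 and SUV420H2 fell. TET2, a DNA demethylating enzyme that binds OGT, was at 14.1, 15.4 and 17.1 CPM in DMSO libraries a to c and 19.1, 19.1 and 19.3 CPM in TMG libraries a to c (log2 fold change 0.31, SE 0.07, adjusted p = 0.011). It rose as the single member of 16 chromatin partners of OGT. The kinetochore genes CENPE and CENPF rose among 36 cell cycle genes. CENPE was at 94.1, 91.8 and 93 CPM in DMSO libraries a to c and 108, 115 and 108 CPM in TMG libraries a to c (log2 fold change 0.25, SE 0.05, adjusted p = 0.00347). CENPF was at 143, 151 and 157 CPM in DMSO libraries a to c and 184, 175 and 177 CPM in TMG libraries a to c (log2 fold change 0.25, SE 0.05, adjusted p = 0.00377). The lowest TMG library was above the highest DMSO library for TET2, CENPE and CENPF. ATM (0.26) and PRKDC (0.20), kinases that respond to broken DNA, rose among 38 repair genes, and the related kinase SMG1 (0.22) among 10 genes of nonsense-mediated decay. CLK2 (0.21), a kinase of SR splicing factors, and SRSF10 (0.17) rose among 19 SR and CLK genes. TAF1D (0.26) rose among 12 snoRNA host genes and CHD2 (0.25) among 32 remodellers, a list put together after the values had been seen. ZNF genes went both ways, with 9 higher and 7 lower of 370. No list of those above had more than 3 rising members apart from the ZNF genes. Without TMG library b, 1 ZNF, 1 snoRNA host, 1 repair and 1 cell cycle gene rose, and no member of the histone methylation, OGT partner, nonsense-mediated decay, SR and CLK or remodeller lists. Without DMSO library a, no member of the histone methylation, OGT partner or nonsense-mediated decay lists rose, and without DMSO library b 1 ZNF gene and no SR or CLK gene.

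By size, among genes that passed without overlap of the groups at mean counts of 50 or more, the furthest falls were in genes with few counts. ADAMTS8 (chr11:130278359-130289187), a secreted protease, was at 1.45, 0.939 and 1.54 CPM in DMSO libraries a to c and 0.641, 0.822 and 0.858 CPM in TMG libraries a to c (log2 fold change -0.74, SE 0.23, adjusted p = 0.0415). ULBP2 (chr6:150263137-150268587), a stress ligand of natural killer cells, was at 7.79, 7.49 and 5.99 CPM in DMSO libraries a to c and 4.8, 4.11 and 4.61 CPM in TMG libraries a to c (log2 fold change -0.66, SE 0.11, adjusted p = 0.000979). The others were SEPT4 (-0.68), N4BP3 (-0.64), SLC46A3 (-0.64), FES (-0.63), SLC35G2 (-0.62), ALG1L (-0.60), SLC22A18 (-0.58) and ITPKA (-0.58). The furthest rises were NOS1AP (0.58), SLC26A10 (0.52), LTB4R (0.52), ZNF841 (0.52), SGK494 (0.52), CTSK (0.51), ZNF17 (0.51), LY6G5B (0.48), AGER (0.48) and FAM133B (0.44). NOS1AP (chr1:162039582-162326926) was at 1.76, 2.52 and 2.76 CPM in DMSO libraries a to c and 3.74, 3.31 and 3.49 CPM in TMG libraries a to c (log2 fold change 0.58, SE 0.15, adjusted p = 0.0163). FAM133B, the most abundant of them, was at 37.6, 46.8 and 50.7 CPM in DMSO libraries a to c and 52.7, 57.2 and 73.1 CPM in TMG libraries a to c (log2 fold change 0.44, SE 0.09, adjusted p = 0.00377). CTSK, a cathepsin outside the lysosomal list, was higher with TMG, at 2.06, 2.05 and 2.07 CPM in DMSO libraries a to c and 3.17, 3.03 and 2.61 CPM in TMG libraries a to c. Apart from FAM133B, these genes had 31 to 468 counts per library.

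The direction of change went with the GC content and length of transcripts. Genes that fell had a median transcript GC of 57.5% and a median length of 2872 bases, genes that rose 41.7% and 6878 bases, and all genes tested 48.4% and 3780 bases. With genes in 4 groups of equal size by GC, 14.6% fell and 0.168% rose in the highest group, and 1.75% fell and 2.66% rose in the lowest. The slope of a gene's level on GC, per 10 points and on the log2 scale, was 0.050, 0.040 and 0.0077 in DMSO libraries a to c and 0.013, -0.051 and -0.059 in TMG libraries a to c, so TMG library a lay within the DMSO range. The slope on length, per doubling, was -0.059, 0.0025 and -0.0023 in DMSO libraries a to c and 0.014, 0.026 and 0.019 in TMG libraries a to c. On length, DMSO library a thus lay furthest from the others. With the GC trend and the length trend removed per library, 454 genes fell and 229 rose. Lysosomal genes were lower in 22 cases then (median -0.20 in place of -0.23), translocon and cargo genes in 19 (-0.14 in place of -0.17), MHC class I genes in 6 (-0.18 in place of -0.30) and genes of the unfolded protein response list in 11 (-0.20 in both). The part of GC content in these falls was not tested.

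**Figure D3:**
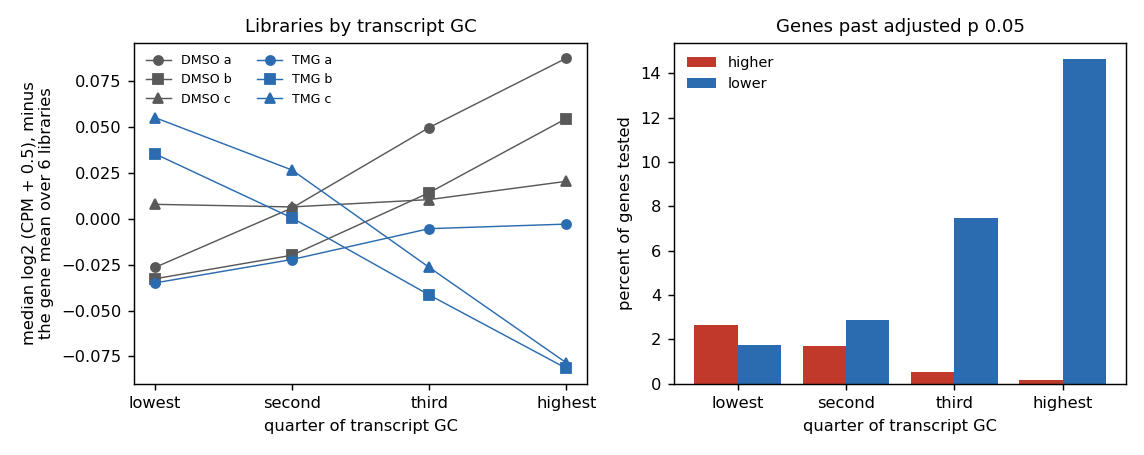
Left, median level of genes in each library in 4 groups of equal size by transcript GC, as log2 of CPM plus 0.5 minus the gene's mean over the 6 libraries. Right, percent of genes tested in each group that rose or fell at an adjusted p under 0.05. TMG libraries b and c and DMSO libraries a and b slope in opposite directions, and falls reach 14.6% in the highest group.

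Detained introns held more of the counts with TMG at 2 h. They took 0.377, 0.443 and 0.427% of the counts in DMSO libraries a to c and 0.538, 0.543 and 0.475% in TMG libraries a to c. The lowest TMG library was above the highest DMSO library, with means of 0.416% ± 0.0345 and 0.518% ± 0.0381 (SD, n = 3 each; exact two-sided permutation p = 0.1, the smallest that 3 against 3 libraries allow). Of 4056 introns tested, 398 changed (9.81%), with 393 higher (9.69%) and 5 lower (0.123%), in the edgeR quasi-likelihood test at an adjusted p under 0.05. A positive fold change was present in 84.5% of them, and the median was 0.29 on the log2 scale, against -0.031 for genes. The risen introns lay in 367 genes, of which 16 rose and 6 fell as genes, where 1.25% of all genes tested rose and 6.67% fell. With scaling on the introns alone, 33 rose and 44 fell, which gives the change relative to the median intron. The number of called introns was 60 without TMG library b, 120 without TMG library a, 160 without DMSO library c and 181 without DMSO library a.

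The rise in level differed by intron length and by host gene. Introns of 1500 bases or more rose in 273 of 2238 cases (12.2%, median 0.34), those of 500 bases up to that length in 100 of 1154 (8.67%, median 0.26) and those under 500 bases in 20 of 664 (3.01%, median 0.18), at like median counts of 31.8 to 33.4. Length went with the GC of the host transcript. Introns of hosts at or under the median GC (50.9%) rose in 269 of 2006 cases (13.4%), at a median width of 2687.5 bases. Those of hosts above it rose in 120 of 2005 (5.99%), at a median width of 1103 bases. The parts of length and GC were not tested. Introns in genes that fell rose in 6 of 249 cases (2.41%, median 0.17) and those in genes that rose in 17 of 80 (21.2%, median 0.36). These are levels, which carry the change of the gene too. In usage, relative to the gene's other bins, the order was reversed. There 14 of the 249 rose (5.62%, median 0.40) and 0 of the 80 (median 0.13). Usage takes off the change of the gene, by which these introns had been grouped in the same libraries. The reversal is thus built into the grouping and says nothing on splicing. In genes not called the median was 0.29 in both level and usage. Of 25 introns in lysosomal genes and 8 in genes of the unfolded protein response list none rose in level, with medians of 0.069 and 0.078. Over all introns tested 9.69% rose, and 2.41% of those in genes that fell. Sets this small cannot be told apart from those shares, and their levels carry the fall of the genes. By bin usage, 144 introns rose (3.55%) and 2 fell, AP2A2_E020 and ZMYM2_E017, of 4054 (edgeR diffSpliceDGE). The test of the log ratio of intron to gene with limma called 5 introns of 4031 (0.124%), all higher and none lower, with 1028 at an unadjusted p under 0.05. It called 209 at a mean of 50 counts or more, and 1 with any library left out. Those 5 were DDB1_E004, MGEA5_E008, BMP1_E021, FLVCR1_E007 and TPCN1_E017, the last 3 named after their values were seen. By the adjusted p of the authors' deposited table, usage was higher for 151 introns and lower for 1.

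**Figure D4:**
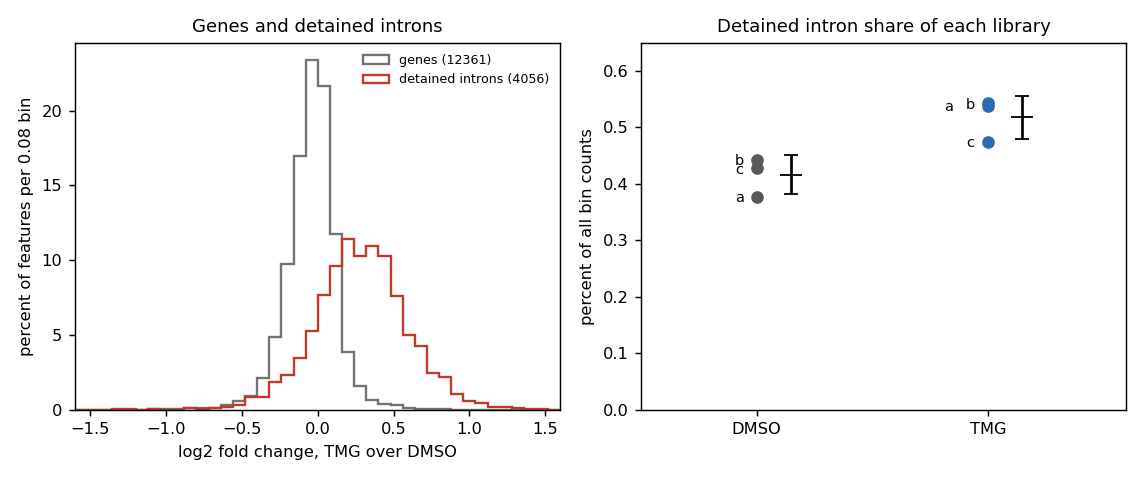
Left, distribution of the log2 fold change of TMG over DMSO for 12361 genes (grey) and 4056 detained introns (red), as percent of features per bin of 0.08. Right, share of all bin counts in detained introns for each library at 2 h (letters name libraries; bars give mean and SD, n = 3). The red curve is shifted to the right of the grey, and the TMG libraries lie at 0.475% to 0.543%.

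Of 6 introns tested in genes of O-GlcNAc cycling and the hexosamine route 3 rose, 1 of MGEA5 and both of OGT, while the genes did not pass. MGEA5_E008 (chr10:103553756-103555130, 1375 bases) had 120, 172 and 125 counts in DMSO libraries a to c and 304, 323 and 303 in TMG libraries a to c. This was 1.9, 2.25 and 1.86% in DMSO libraries a to c and 4.27, 4.44 and 3.94% in TMG libraries a to c of the counts of the gene's other bins. The groups lay far apart (log2 fold change 1.21, SE 0.12, adjusted p = 7.85e-09), also in usage (log2 1.03, SE 0.10, adjusted p = 5.31e-14). The neighbouring bin MGEA5_E009, which abuts the intron and carries no class, moved its share with it, from 0.968, 0.798 and 0.803% to 1.76, 1.61 and 1.72% (log2 change of usage 0.96, SE 0.13, adjusted p = 1.65e-06). The second MGEA5 intron, MGEA5_E003 (chr10:103547281-103550652, 3372 bases), had 29, 38 and 38 counts in DMSO libraries a to c and 49, 75 and 37 in TMG libraries a to c, and its groups overlapped (log2 fold change 0.66, SE 0.23, adjusted p = 0.0621). OGT_E005 (chrX:70764486-70766193, 1708 bases) was at 13, 14.3 and 12.3 CPM in DMSO libraries a to c and 16.5, 16 and 15.1 CPM in TMG libraries a to c (log2 fold change 0.26, SE 0.09, adjusted p = 0.0426). OGT_E007 (chrX:70766347-70767756, 1410 bases) was at 12.4, 12.6 and 12 CPM in DMSO libraries a to c and 14.7, 15.5 and 14.3 CPM in TMG libraries a to c (log2 fold change 0.26, SE 0.08, adjusted p = 0.0393). The TMG libraries of both OGT introns were above the DMSO libraries, but their change was at the median of all introns, and with scaling on introns alone it was -0.027 for each. Neither passed with DESeq2, in the fit of 12 libraries, or without DMSO library a, DMSO library c, TMG library a or TMG library b, and OGT_E007 also not without DMSO library b. In usage neither passed (adjusted p = 0.365 and 0.372, edgeR diffSpliceDGE).

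Among the introns with the furthest rises at mean counts of 50 or more, PSMC6_E013 (chr14:53187909-53190522, 2614 bases), in the gene of a proteasome ATPase, had 34, 47 and 46 counts in DMSO libraries a to c and 102, 98 and 93 in TMG libraries a to c (log2 fold change 1.25, SE 0.18, adjusted p = 3.70e-05). USP22_E003 (chr17:20908304-20910208, 1905 bases), in a histone deubiquitinase gene, had 28, 51 and 24 counts in DMSO libraries a to c and 64, 67 and 84 in TMG libraries a to c (log2 fold change 1.11, SE 0.21, adjusted p = 0.00131). FOXJ3_E003 (chr1:42647696-42654407, 6712 bases), in a forkhead factor gene, had 46, 85 and 48 counts in DMSO libraries a to c and 133, 111 and 111 in TMG libraries a to c (log2 fold change 1.04, SE 0.18, adjusted p = 0.000264). The groups did not overlap for any of them, as the rule for naming introns required. FAM178A_E019 (chr10:102710511-102716207, 5697 bases) had 51, 73 and 57 counts in DMSO libraries a to c and 119, 106 and 125 in TMG libraries a to c. ARIH2_E017 (0.97) and NDUFAF6_E019 (0.97) came next, and 47 risen introns reached 1 on the log2 scale. The introns that fell with no overlap were AP2A2_E020 (chr11:1006618-1007407, 790 bases), with 81, 97 and 79 counts in DMSO libraries a to c and 43, 43 and 32 in TMG libraries a to c (log2 fold change -1.07, SE 0.19, adjusted p = 0.000625), C1orf63_E007 (-0.52), PLOD3_E008 (-0.45) and TCEA2_E002 (-0.40). PLOD3_E008 is 31 bases long, and its gene fell by 0.32. EIF2B1_E002, named after its values were seen, also passed but its groups overlapped.

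The furthest rise, DDB1_E004 (chr11:61068405-61069728, 1324 bases) in the gene of a subunit of a DNA damage ubiquitin ligase, was also high in libraries without TMG. It had 21, 35 and 35 counts in DMSO libraries a to c and 345, 316 and 329 in TMG libraries a to c (log2 fold change 3.49, SE 0.16, adjusted p = 1.10e-19), or 0.0567, 0.0798 and 0.0953% in DMSO libraries a to c and 0.929, 0.887 and 0.847% in TMG libraries a to c of the gene's other bins. The adjoining exon bin DDB1_E005 (chr11:61069729-61069831, 103 bases) fell from 3.66, 3.56 and 3.44% to 2.74, 2.73 and 2.81% of the gene (log2 change of usage -0.38, SE 0.05, adjusted p = 0.000187). Over the 23 libraries the intron had 2 separate levels, 0.0253% to 0.125% of the gene in 13 libraries and 0.847% to 1.31% in 10. The high level was present in 3 of 3 TMG libraries at 2 h, 1 of 3 TMG libraries at 6 h, 0 of 6 DMSO libraries of the TMG experiment, 3 of 6 DMSO libraries of the OSMI-2 experiment and 3 of 5 OSMI-2 libraries. It was thus present without TMG, and 2 of 3 libraries lacked it after 6 h of TMG. The share of DDB1_E005 went with the level of the intron there too. After 6 h of TMG it was 2.82% in library b, where the intron was high, and 3.57 and 3.47% in libraries a and c. In DMSO of the OSMI-2 experiment at 2 h it was 3.75 and 3.74% in libraries a and c, where the intron was high, and 4.43% in library b. IMMT_E005 also varied between libraries of a group, with 92, 118 and 20 counts in DMSO libraries a to c and 130, 115 and 26 in TMG libraries a to c at 2 h.

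**Figure D5:**
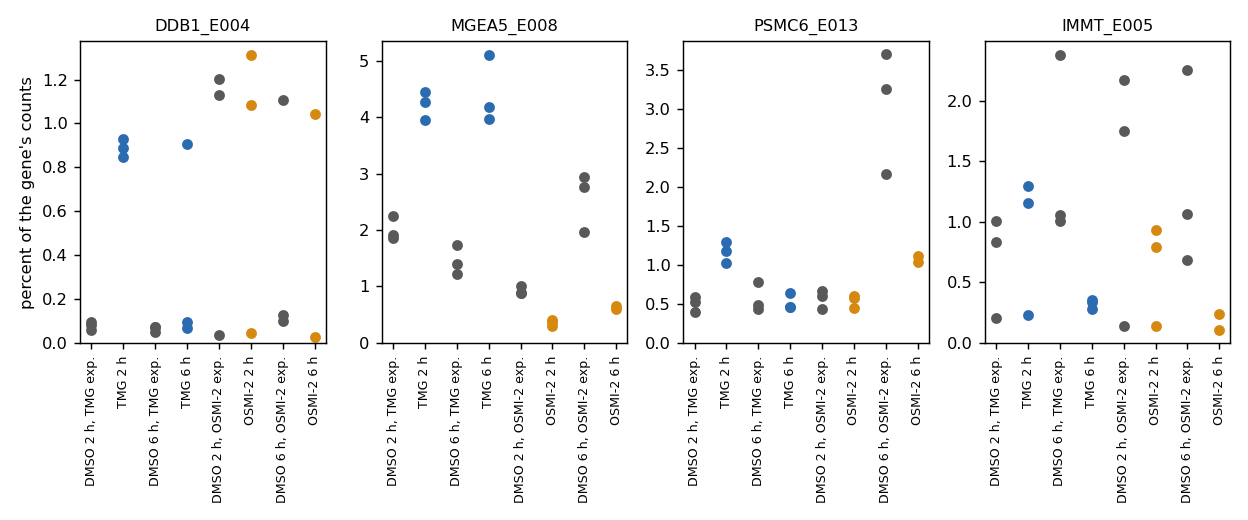
Counts of 4 detained introns as percent of the counts of the other bins of their gene, 1 point per library, in the 8 groups of the series (exp., experiment; grey DMSO, blue TMG, orange OSMI-2). DDB1_E004 sits at 2 separate levels in 5 of the groups, MGEA5_E008 is above its DMSO libraries in each TMG group, and PSMC6_E013 is above them at 2 h.

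Bins outside detained introns changed little. Over all 136793 bins tested for usage, 182 rose (0.133%) and 7 fell (0.00512%), 146 of them detained introns. Of the 132739 that are no detained intron, 43 changed (0.0324%), 38 higher (0.0286%) and 5 lower (0.00377%). The rises comprised 19 unclassified bins, 7 alternative last exons, 5 complex first or last exons, 3 constitutive internal exons and 1 each of cassette exon (POMT2_E009), mutually exclusive exon (DDX46_E017), alternative 5′ splice site (IFT172_E034) and tandem splice site (TCOF1_E040). These bins were wide: 22 of the 38 had at least 500 bases, against 10.4% of all tested, and 7 of 38 abutted a detained intron, against 6.03%. The classes with no call were alternative 3′ splice sites (3578 tested), constitutive last exons (4496) and hanging 5′ splice sites (293). When detained introns were left out of the fit, 23 exon bins rose and 2 fell. Over all bins, the 189 calls became 54 without TMG library b, 65 without DMSO library a, 87 without TMG library a and 123 without DMSO library c, and limma on the log ratio of bin to gene called 0, with 9549 at an unadjusted p under 0.05.

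RPS3_E008 (chr11:75113491-75114992), an alternative last exon bin of 1502 bases in a ribosomal protein gene, held 0.0894, 0.0924 and 0.104% in DMSO libraries a to c and 0.153, 0.165 and 0.149% in TMG libraries a to c of the gene's counts (log2 change of usage 0.72, SE 0.11, adjusted p = 2.24e-05). ATP1B3_E007 (chr3:141642262-141644372), a complex first or last exon of a sodium pump subunit, held 0.577, 0.668 and 0.801% in DMSO libraries a to c and 1.25, 1 and 1.05% in TMG libraries a to c (log2 change of usage 0.69, SE 0.13, adjusted p = 0.00241). All TMG libraries were above all DMSO libraries in both, as the rule for naming bins required, at small shares of the gene. The other named rises were AGRN_E038, ANAPC2_E005, SNRPA_E001, PABPC1_E002 and CACTIN_E007, with log2 changes of usage of 0.67 to 0.88. Of the falls, VAMP2_E006 (chr17:8066196-8066293), the first exon of a vesicle SNARE gene, held 7.16, 6.26 and 6.4% in DMSO libraries a to c and 4.82, 4.64 and 3.94% in TMG libraries a to c (log2 change of usage -0.56, SE 0.12, adjusted p = 0.0335). UBB_E006, in a polyubiquitin gene of near-identical repeats, held 11.3, 14.3 and 14.8% in DMSO libraries a to c and 10.6, 10.9 and 10.7% in TMG libraries a to c (log2 change of usage -0.32, SE 0.07, adjusted p = 0.0225). CCDC43_E002 had a log2 change of -0.58. In UBB and CCDC43, DMSO library a lay close to the TMG libraries. The fifth fall, CRYZL1_E006, had a mean below 50 counts and is named after its values were seen.

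At 6 h, against DMSO libraries of that time, 586 genes fell (4.84%) and 144 rose (1.19%) of 12103 tested. Of the 824 genes that fell at 2 h, 823 were tested at 6 h, with a median change of -0.18, 777 in the same direction and 173 past the test in that direction. Of the 154 that rose, 143 had the same direction at 6 h and 20 passed. Over all 12087 genes tested at both times, 8385 had the same direction. The unfolded protein response list had 12 of 17 lower at 2 h and 4 at 6 h (medians -0.20 and -0.072). HSPA5 changed by -0.25 at 2 h and -0.067 at 6 h, HSP90B1 by -0.23 and -0.026, CALR by -0.30 and -0.15, and PDIA4 by -0.32 and -0.26. Lysosomal genes had 23 and 7 of 36 lower (medians -0.23 and -0.17). No gene of these 2 lists passed the test of the difference between the times, so a weaker response at 6 h is not shown. Over all genes that test passed for 3 of 12399 (0.0242%), 2 with the higher value at 6 h (0.0161%) and 1 with the lower (0.00807%). It passed for 69 genes without DMSO 6 h library a and for 1 without TMG 2 h library b or TMG 6 h library c. Detained introns had 7 higher (0.166%) and 1 lower (0.0237%) of 4219 at 6 h. Their share of the counts at 6 h was 0.462, 0.669 and 0.538% in DMSO libraries a to c and 0.580, 0.668 and 0.625% in TMG libraries a to c, and the groups overlapped. Of the 393 introns that rose at 2 h, 390 were tested at 6 h, 350 had a positive change and 4 passed as higher. Over 3969 introns tested at both times, the median was 0.29 at 2 h and 0.15 at 6 h, and 2856 were positive at 6 h. Among introns the test of the difference between times passed for 3 of 4388 (0.0684%), 2 higher (0.0456%) and 1 lower (0.0228%). MGEA5 rose more at 6 h, with 0.14 at 2 h and 0.72 at 6 h, and OGT had -0.04 and -0.48 (adjusted p of the difference 0.000487 for MGEA5 and 0.147 for OGT). PSMC6_E013 had 1.25 and 0.051 (adjusted p of the difference 0.211).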

How the data were processed

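A total of 6 libraries of polyadenylated RNA were compared, 3 TMG and 3 DMSO. The authors deposited whole-number counts per bin and library, and, beside each bin, a p-value of their own usage test. Per the file headers, the same table holds their adjusted p and a log2 fold change. The submitters' processing notes name STAR and hg19, and coordinates of the tables are printed as hg19. The counter, the annotation and the use of strand in counting are not given in the sources used here, so overlapping genes and near-identical copies are uncertain. Deposited index-read files were used for depth alone. Table columns carry letters, which are used here to name libraries.

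Bins that are no detained intron were summed over each gene group. Genes and introns were tested apart with edgeR 4.0.16 in R 4.3.3 (filterByExpr, TMM over genes and introns together, glmQLFit, glmQLFTest, two-sided, Benjamini-Hochberg, threshold 0.05). Bin usage was tested with edgeR diffSpliceDGE, relative to the gene's other bins. The ratio of intron to gene, log2 of count plus 1 over count plus 1 at means of at least 10, was tested with limma 3.58.1. Standard errors were taken from the fold change and the F statistic. The difference between times was an interaction term over 12 libraries. Genes were named by size among those called, without overlap of the groups and at mean counts of 50 or more (10 per direction, 8 risen and 5 fallen introns, 8 bins per direction, 3 per direction between times), besides OGT, MGEA5 and members of lists. The members and lists were chosen with earlier results of these data known, and 12 of 46 lists after the values here had been seen. Transcript GC and length came from GENCODE and were matched by symbol for 96.1% of genes tested. Values of some genes are not reported here.

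Tested on simulated data with 200 features changed, the gene test recovered 80.5% at a fold of 1.5 and 100% at 2 (12355 and 12352 genes), the intron test 60.5% and 100%, the intron-to-gene ratio 18% and 99%, and bin usage 27.5% and 94.5%. The gene test also made 19 false calls beside 161 true ones at a fold of 1.5, and 18 beside 200 at 2. The intron test made 11 beside 121 and 9 beside 200, and bin usage 4 beside 55 and 19 beside 189. The intron-to-gene ratio made 1 beside 36 and 6 beside 198. Some of the calls reported here may thus be false. Only features with a DMSO mean of at least 50 counts were changed, and the simulated dispersion was the same for every feature. The median intron tested had 32.7 counts, so recovery at such counts was not tested. For the ratio the gene's count was held constant, so the spread of genes did not enter. Alternatives were other scalings, DESeq2 1.42.0, count filters, fits with more libraries, each library left out, and, added after seeing the data, removal of the GC and length trend and a limma variance trend on the mean count.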

Additional observations from a re-analysis of the deposited data

Results flagged for a closer look

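Between 2 h and 6 h of TMG, 3 genes and 3 detained introns differed past the threshold in the test of the difference itself (edgeR quasi-likelihood, 12399 genes and 4388 introns, 0.0242% and 0.0684% of those tested). Values are the effect at 6 h minus that at 2 h on the log2 scale. MGEA5 differed by 0.60 (SE 0.08, adjusted p = 0.000487), from 135, 137 and 146 CPM in DMSO and 147, 153 and 155 in TMG at 2 h to 147, 159 and 165 in DMSO and 253, 263 and 258 in TMG at 6 h. ZFR, a zinc finger RNA-binding protein gene, differed by 0.44 (adjusted p = 0.00816), with 202, 196 and 209 CPM in DMSO and 305, 295 and 308 in TMG at 6 h. ANKRD26 differed by -0.71 (adjusted p = 0.0285). Its DMSO libraries were at 20.8 to 24.3 CPM at 2 h and 31.8 to 44.1 at 6 h, and its TMG libraries at up to 26.5 CPM at 2 h and 27.0 to 27.4 at 6 h. The intron MGEA5_E008 differed by 1.13 (adjusted p = 0.0101), with 85, 123 and 100 counts in DMSO and 486, 536 and 459 in TMG at 6 h. IMMT_E005 differed by -2.34 and ANKRD17_E009, whose mean was below 50 counts, by 2.74 (adjusted p = 0.0101 each). Both introns also varied within groups: ANKRD17_E009 had 19, 106 and 13 counts in DMSO and 22, 31 and 22 in TMG at 2 h, and 18, 36 and 23 in DMSO and 31, 116 and 133 in TMG at 6 h.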

How the results depend on the processing

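No paired analysis was possible because the columns of the table name libraries by letter, and nothing ties a letter to a numbered replicate. Called genes (978) numbered 508 in the fit of 12 libraries of the TMG experiment and 0 in the fit of all 23 (162 at an unadjusted p under 0.05), and 243 to 1212 with a library left out. Called introns (398) numbered 77 with scaling on introns alone, 143 with DESeq2, 83 in the fit of 12 libraries, and 60 to 562 with a library left out. Introns relative to their gene (5 by limma) numbered 209 at a mean of at least 50 counts, 395 with the variance trend on the mean count, 152 in the authors' deposited table, and 1 with any library left out (1 to 1). Bins changed in usage (189) numbered 0 by limma (9549 at an unadjusted p under 0.05), 1 by limma with the variance trend on the mean count, 338 in the authors' deposited table, of which 123 are shared, 25 without detained introns in the fit, and 54 to 219 with a library left out. Between times, 3 genes became 1 to 69 with a library left out, the highest without DMSO 6 h library a, and 3 introns became 10 with scaling on introns alone and 0 to 7 with a library left out. The difference in detained intron share, 0.103 percentage points, ranged from 0.0833 to 0.125. OGT turned from -0.040 to 0.0034 in the fit of all 23 libraries and ranged from -0.086 to 0.0064 with a library left out (above 0 without DMSO library a). OGT_E005 and OGT_E007 turned to -0.027 each with scaling on introns alone. OGT passed the test in none of these fits. The cause of these shifts was not tested.

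With 3 libraries a group and fitted gene changes mostly under 0.5, calls near the threshold depend on which libraries enter. Depth limits the intron tests: the median intron tested had 32.7 counts. Since a read can count in several bins, neighbouring bins are not independent, and the kit used for RNA extraction cannot be told apart from the groups by the labels.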
